A study of Mus musculus with 25 samples.

Results

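Cytochrome c and several small subunits of cytochrome c oxidase exist in mice as a form used by most tissues and a form made mainly in testis. The 7 genes described here were taken by name from every table, out of 29244 genes measured: the pairs Cyct and Cycs, Cox6b2 and Cox6b1, and Cox8c and Cox8a, each with the testis form first, and Cox4i1, the common form of subunit 4. All 7 had values in the tables, and all 7 passed the filter on low counts in every comparison below. Drop-seq, a droplet method that reads the 3′ end of single-cell transcripts and counts each captured molecule once by its unique molecular identifier (UMI), was applied to 25 mouse libraries. A UMI stands for a molecule whatever the transcript's length, so 2 isoforms were compared without a length correction, and levels are given as CPM, counts-per-million of all UMIs in the same cells.

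Whole testis of males gave 11 wild-type C57BL/6 libraries (WT1 to WT11, 3 months 1 day to 9 months 14 days old), 6 Mlh3-/- libraries (2 months 21 days to 8 months 30 days), 2 Cul4a-/- libraries (1 month 18 and 21 days) and 2 CNP libraries (2 months 14 and 16 days). The ages of Cul4a and CNP are those of the labels, and a list of the study gives them the other way round. The study describes the wild-type libraries as 11 animals. For the mutants neither it nor the labels say whether each library is another animal, and Mlh3_2 and Mlh3_3 have the same age, so there the spread between libraries may in part be technical. The CNP males carry an eGFP BAC TRAP transgene on C57BL/6. The labels give a B6;129 background for the Mlh3 and Cul4a males, where the study's methods write B6.129 for the Mlh3 line. Genotype and background cannot be told apart in those 2 strains. All Cul4a and CNP libraries came from younger males than any wild-type library, so genotype and age cannot be told apart in Cul4a and CNP. Mlh3 encodes a protein needed for meiotic crossing over, and Cul4a a ubiquitin ligase scaffold. Purified spermatogonia were pooled from 5 litter mates of 7 days that carry a germ cell eGFP reporter (written Pouf51-EGFP in the labels, which give C57BL/6 as strain, where the study's methods give B6;CBA), and sorted primary spermatocytes, secondary spermatocytes and spermatids came from wild-type C57BL/6 males of 2 months 21 days, with 1 library for each population. WT1, WT2 and the spermatogonia were dissociated with enzymes and the rest mechanically, and the strain comparisons used the 9 mechanical wild-type libraries.

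Cytochrome c carries electrons from complex III to complex IV of the respiratory chain, and once released from mitochondria into the cytosol it takes part in the activation of caspases. Complex IV, or cytochrome c oxidase, is built on subunits encoded by mitochondrial DNA, around which small nuclear-encoded subunits such as COX4, COX6B and COX8 are placed. Germ cells move through mitosis, meiosis and spermiogenesis while their mitochondria change shape and their fuel changes, and several housekeeping genes of metabolism have a testis counterpart that is switched on in spermatocytes.

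The genes of each pair lie on different chromosomes, except Cox6b1 and Cox6b2. In GRCm38, Cyct lies at chr2:76353942-76360450 and Cycs at chr6:50562563-50566538, both on the minus strand. Cox6b2 at chr7:4751792-4753094 and Cox6b1 at chr7:30616861-30626151 are also on the minus strand. Cox8a lies at chr19:7215153-7217616 on the minus strand, Cox8c at chr12:102899316-102900526 on the plus strand and Cox4i1 at chr8:120668222-120674207 on the plus strand, and the annotation lists all 7 as protein-coding. In the transcripts of 6 members no stretch of 50 bases was shared with another gene. In the Cycs transcript 28.2% of such stretches were shared with 43 other annotated genes, and 0% of those in its last 400 bases, its annotated 3′ end. Only 1 coding Cycs transcript was annotated, so transcripts that end earlier were not checked. Whether reads that match several places lowered the Cycs counts, and so raised the Cyct shares, was not tested. The 3 genes that shared most (Gm10053, Gm10108 and Gm13772) held 63 UMIs over the 25 libraries, against 1168 for Cycs.

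To set the 2 forms of a pair side by side, the 250 bases before the start site are shown for both cytochrome c genes and both subunit 6B genes, from RefSeq on GRCm38.p6, read on the gene's own strand from 5′ to 3′. Entries were matched for 5 of the 7 members. Capitals mark the cyclic AMP response element TGACGTCA and its core TGACG, read on either strand.
Cyct, chr2:76360454-76360703: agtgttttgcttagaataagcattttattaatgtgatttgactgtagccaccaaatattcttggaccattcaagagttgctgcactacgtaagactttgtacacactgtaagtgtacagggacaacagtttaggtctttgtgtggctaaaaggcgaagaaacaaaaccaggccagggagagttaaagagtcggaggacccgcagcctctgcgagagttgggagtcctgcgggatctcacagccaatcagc
Cycs, chr6:50566570-50566819: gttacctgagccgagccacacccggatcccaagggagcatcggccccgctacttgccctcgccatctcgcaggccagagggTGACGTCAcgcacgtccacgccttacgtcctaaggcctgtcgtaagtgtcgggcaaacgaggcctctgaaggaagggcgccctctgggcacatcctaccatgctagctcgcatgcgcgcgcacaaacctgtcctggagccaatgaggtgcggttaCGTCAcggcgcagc
Cox6b2, chr7:4753095-4753344: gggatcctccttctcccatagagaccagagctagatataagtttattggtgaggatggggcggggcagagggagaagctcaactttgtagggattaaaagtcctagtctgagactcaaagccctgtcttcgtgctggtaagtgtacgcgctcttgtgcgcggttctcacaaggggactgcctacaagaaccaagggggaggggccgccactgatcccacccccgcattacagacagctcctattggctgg
Cox6b1, chr7:30626115-30626364: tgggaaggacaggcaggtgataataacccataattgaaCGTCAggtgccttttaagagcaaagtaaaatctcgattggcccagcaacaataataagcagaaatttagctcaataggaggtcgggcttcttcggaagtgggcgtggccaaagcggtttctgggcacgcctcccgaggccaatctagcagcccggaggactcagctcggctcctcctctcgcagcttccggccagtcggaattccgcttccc

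The full element occurred in the Cycs window, 162 to 169 bases before the start, and in 1.55% of 32817 mouse windows of the same length. The core TGACG occurred in the windows of Cycs, Cox6b1 and Cox8a, the 3 somatic forms, and in 17.7% of all windows, and it was not found in those of Cyct and Cox6b2. CCAAT was found in all 5 windows and in 33.8% of all, and AACTG, the core of MYB sites, in the Cyct window alone of the 5 and in 39.1% of all. Neither an exact match to the NRF-1 motif (3.73% of all windows) nor TATAAA (12.4%) was found in these 5. NRF-1 was searched as a fixed string, so near matches were not counted. The Cycs window holds a string that differs from it in an end base only. The search therefore does not show that Cycs lacks an NRF-1 site. Such matches describe letters and not binding.

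The tables held 48642 cell barcodes and 65063387 UMIs, from 107117 UMIs in the sorted primary spermatocytes to 9745302 in Cul4a_2, and 430 barcodes occurred in more than 1 library, at most 27 in any pair. After filters, 36619 cells were clustered without the listed respiratory chain and isoform genes. The last filter, on a high mt-Rnr2 share, had taken the cells from 44340 to 36619. Of these, 17631 fell into clusters that could be named by markers. The share of filtered cells without a name was 62.4% in wild-type, 52.8% in CNP, 31.7% in Cul4a and 10.3% in Mlh3 testes. That is 15629 cells in wild-type, which had 26123 barcodes before filters, and 287 cells in Mlh3, which had 11210. The filters thus removed a larger part of the Mlh3 barcodes, and Mlh3 classes describe only the cells left. All classes are called by their markers (pachytene-like and so on), and sums over at least 10 cells of a class in a library were the unit of the tests on classes. The meiotic division-like class was named by genes that the study lists for diplotene and the divisions together, so it may hold late prophase cells. It held 2895 wild-type and 75 Mlh3 cells, beside 560 and 946 pachytene-like ones. Below, "at the divisions" means the step from pachytene-like cells into this class. The tests on whole libraries used all barcodes. Clusters differed by strain: 70% of Cul4a round spermatid-like cells lay in clusters that were at least 80% Cul4a. Mlh3 libraries held 0 round or elongating spermatid-like cells. Transcripts of the targeted genes were counted in the mutants: Mlh3 at 26.2 to 86.5 CPM in the 6 Mlh3 libraries and 10.7 to 72.9 in wild-type, and Cul4a at 49 and 54.5 CPM in the Cul4a libraries and 5.6 to 45.7 in wild-type. These are 3′ tags, and whether they lie outside the deleted parts is not given in the sources used here, so the counts check no label. WT3, the only mechanical wild-type library sequenced on a MiSeq, had more somatic cytochrome c than the other mechanical wild-type libraries in several classes, and results that turn on it are given with and without it.

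In wild-type testes the testis forms were highest in pachytene-like spermatocytes and fell towards elongating spermatids, while the median level of each somatic form was at most 29 CPM in these 4 classes. Cyct, the testis cytochrome c, ranged from 572 to 1010 CPM in the pachytene-like cells of 9 libraries, with a median of 775. It was at 88.3 to 329 CPM in meiotic division-like cells (median 265, 11 libraries), at 83.8 to 151 in round spermatid-like cells (median 141) and at 21.8 to 72.6 in elongating spermatid-like cells (median 46.1). No pachytene-like sample overlapped the division-like ones, and no round sample overlapped the elongating ones, while WT3 put the lowest division-like value into the range of the round cells. For this and later statements on overlap the share of all genes without overlap is not given.

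Cycs, the somatic cytochrome c, was at or near 0 in the same cells. Its pachytene-like level ran from 0 to 38.8 CPM with a median of 5.77, and 4 of the 9 libraries held no UMI, where a count of 0 allows up to 3 UMIs. In division-like, round and elongating cells the medians were 3.39, 2.04 and 4.91 CPM. The highest elongating values were 65.5 CPM in WT1, from 3 UMIs, and 59.4 CPM in WT3, from 18 UMIs, and the other 9 libraries lay between 1.92 and 12.7 CPM. Both high libraries were the MiSeq ones among the wild-type testes, and the part of the platform in this was not tested.

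**Figure D1:**
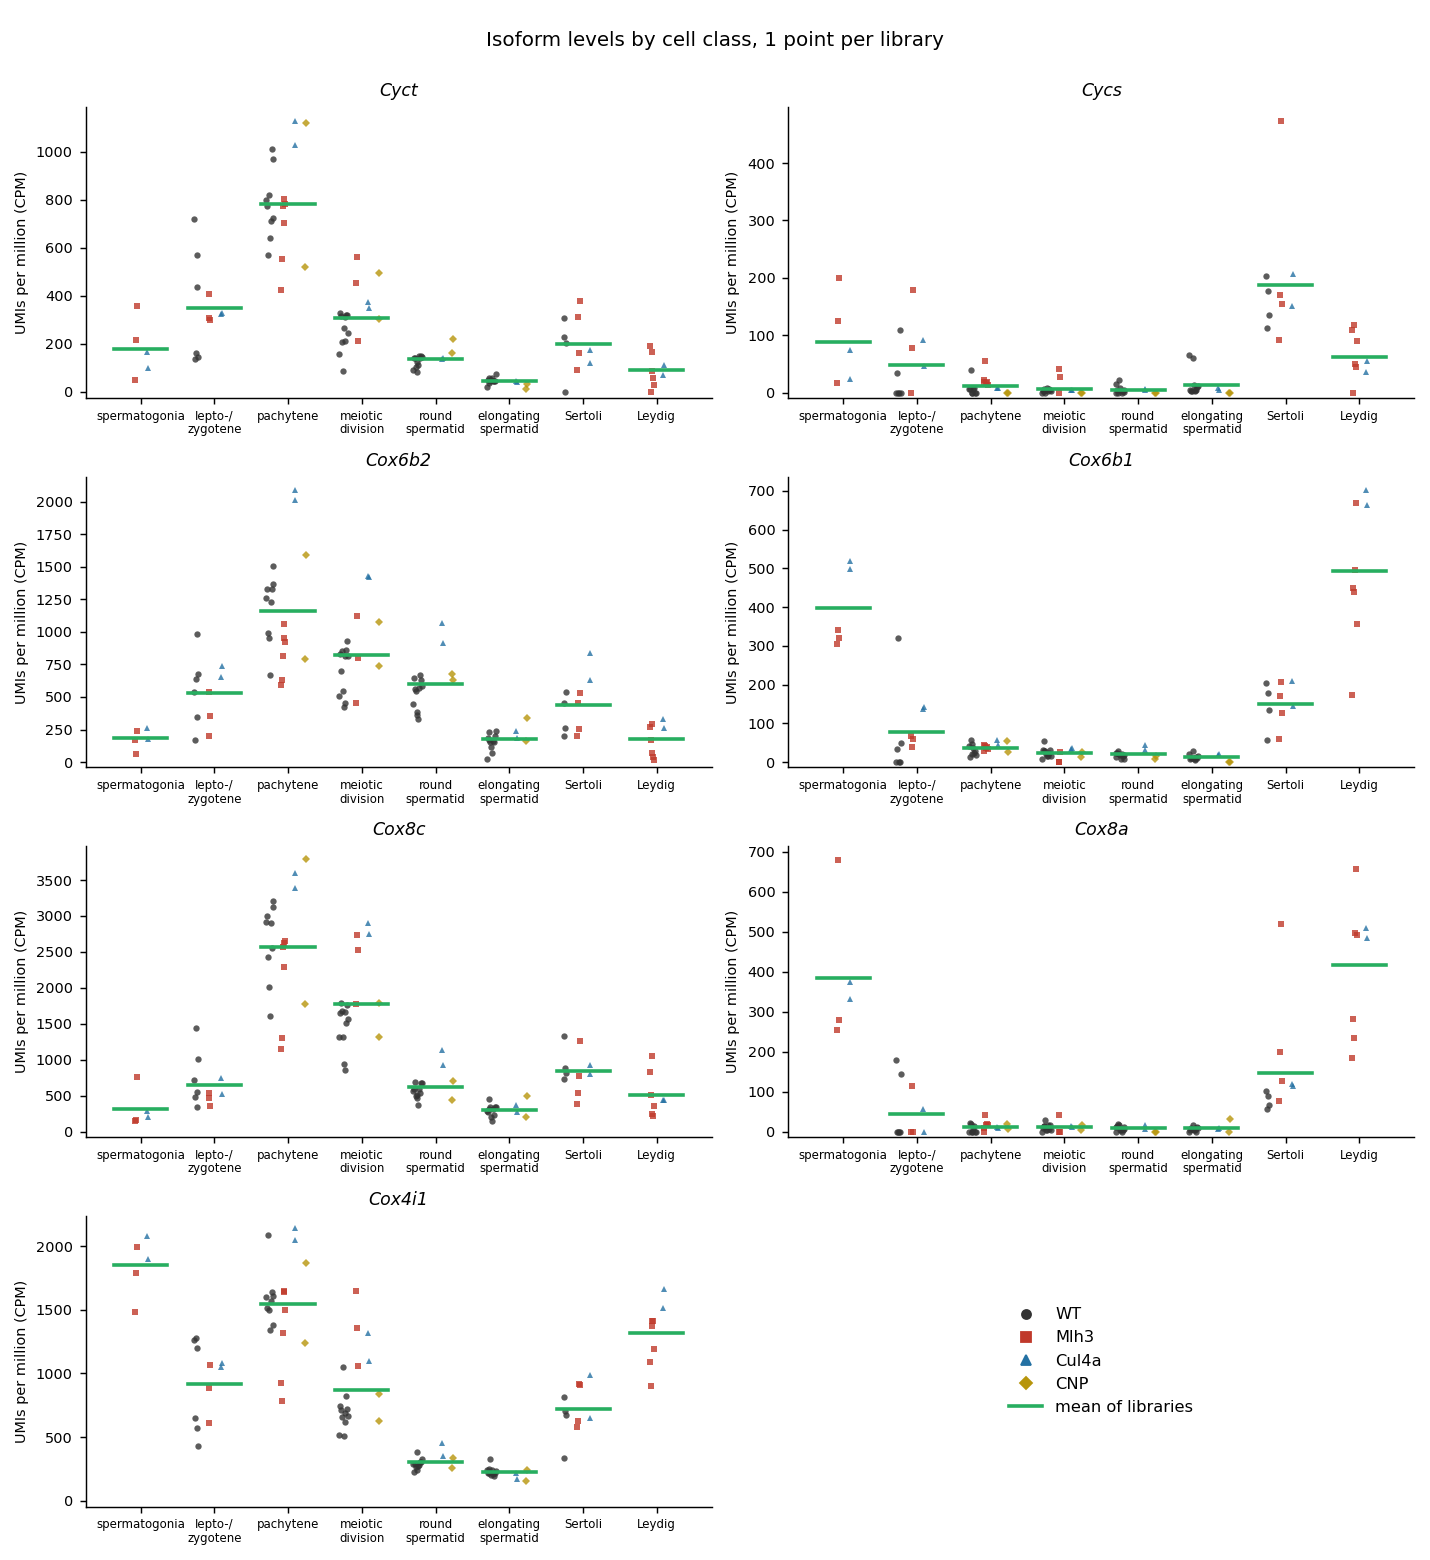
Level of the 7 members (CPM, linear axes) in each germ cell and somatic class, with 1 point per library with at least 10 cells of the class, coloured by strain, and a green line at the mean of libraries. Cyct, Cox6b2 and Cox8c are highest in pachytene-like cells and fall to elongating spermatid-like cells, while Cox6b1 and Cox8a are highest in spermatogonia-like and Leydig-like cells.

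The subunits of complex IV followed 2 kinds of course. Cox8c, the testis form of subunit 8, fell from 1610 to 3210 CPM in pachytene-like cells (median 2900) through 859 to 1790 in division-like cells (median 1560) to 369 to 685 in round cells (median 564) and 141 to 450 in elongating cells (median 310). Division-like and round cells did not overlap for Cox8c, and the other neighbouring classes did. Cox6b2, the testis form of subunit 6B, had medians of 1260, 815, 560 and 164 CPM in these 4 classes. Its range in round cells, 334 to 666 CPM, did not reach that in elongating cells, 21.8 to 238 CPM, whereas its earlier classes overlapped.

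Cox6b1, the common form of subunit 6B, had medians of 29, 23.4, 19.4 and 9.58 CPM in pachytene-like, division-like, round and elongating cells. Cox8a, the common form of subunit 8, had medians of 0, 8.48, 6.28 and 5.49 CPM, with 5 of 9 pachytene-like libraries at 0. The ranges of both genes overlapped between all 4 classes. Cox4i1, for which no testis form was listed here, had medians of 1570, 687, 289 and 220 CPM, and pachytene-like, division-like and round cells did not overlap for it. By its median Cox8c was the most abundant of the 7 transcripts in pachytene-like cells, followed by Cox4i1, Cox6b2 and Cyct, and the ranges of neighbours in this order overlapped.

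The steps were tested with edgeR's quasi-likelihood model on the summed counts, with library as a block and Benjamini-Hochberg adjustment over 13303 genes. Adjusted p-values of genes below are from this model, adjusted over the genes of their own fit, unless DESeq2 is named. The strain comparisons had no library block. From pachytene-like to division-like cells 0 of the 7 members rose and 4 fell, where 56.6% of all genes tested were called in either direction. Cyct fell by 1.24 ± 0.09 on the log2 scale (SE, adjusted p = 3.13e-40), Cox4i1 by 0.91 ± 0.08 (adjusted p = 4.35e-29), Cox8c by 0.61 ± 0.08 (adjusted p = 2.61e-15) and Cox6b2 by 0.49 ± 0.08 (adjusted p = 1.18e-08). The median over all genes at this step was 0.28, and 0.39 with DESeq2, by which the same 4 genes fell. Cycs and Cox6b1 differed by -0.01 ± 0.16 and 0.05 ± 0.28, neither past the threshold. Cox8a differed by 0.95 ± 0.52 (adjusted p = 0.104), and without WT3 it rose by 1.30 (adjusted p = 0.0336).

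At the next step, into round spermatid-like cells, 3 members fell and 0 rose, beside 62.8% of all genes called. Cox8c fell most, by 1.01 ± 0.07 (adjusted p = 2.93e-43), then Cox4i1 by 0.91 ± 0.08 (adjusted p = 1.94e-29) and Cyct by 0.70 ± 0.09 (adjusted p = 6.29e-13). Cox6b2 was at -0.08 ± 0.07 (adjusted p = 0.336), and in the mechanical HiSeq libraries alone it was at 0.16 (adjusted p = 0.0249), so the direction of Cox6b2 at this step turned with the libraries used. The median over all genes was -0.10.

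From round to elongating cells 2 members rose and 3 fell in the fit, which scales libraries by TMM and not by their totals as CPM does, beside 46.8% of all genes called. Cox6b2 had its largest fall here, by 1.09 ± 0.10 (adjusted p = 3.56e-29), while Cyct fell by 0.80 ± 0.14 (adjusted p = 1.17e-07) and Cox8c by 0.37 ± 0.09 (adjusted p = 0.000114). Cycs rose by 1.76 ± 0.40 (adjusted p = 4.32e-05), by 1.43 without WT3 (adjusted p = 0.0119) and by 1.42 in the mechanical HiSeq libraries (adjusted p = 0.0226), from levels of a few UMIs per library. Cox4i1 was higher by 0.24 ± 0.10 in the fit (adjusted p = 0.0253) but lower in CPM, with a median of 220 in elongating against 289 in round cells, and the call was lost without WT3 (0.09, adjusted p = 0.499) and with DESeq2 (0.19, adjusted p = 0.0741). Over the whole course, from pachytene-like to elongating cells, 4 members fell and 2 rose in the fit, beside 66.4% of all genes called. Cyct was 6.69-fold lower, Cox8c 3.99-fold, Cox6b2 3.17-fold and Cox4i1 2.98-fold. The medians in CPM fell further, from 775 to 46.1 for Cyct, from 2900 to 310 for Cox8c, from 1260 to 164 for Cox6b2 and from 1570 to 220 for Cox4i1. Cycs rose by 1.88 ± 0.52 on the log2 scale of the fit (adjusted p = 0.000613), while its median in CPM went from 5.77 to 4.91 and its mean from 7.21 to 16.3, the latter with WT1 and WT3 far above the rest. Cox8a rose by 1.21 ± 0.56 (adjusted p = 0.0476), a call that was lost in 4 of the alternatives.

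**Figure D2:**
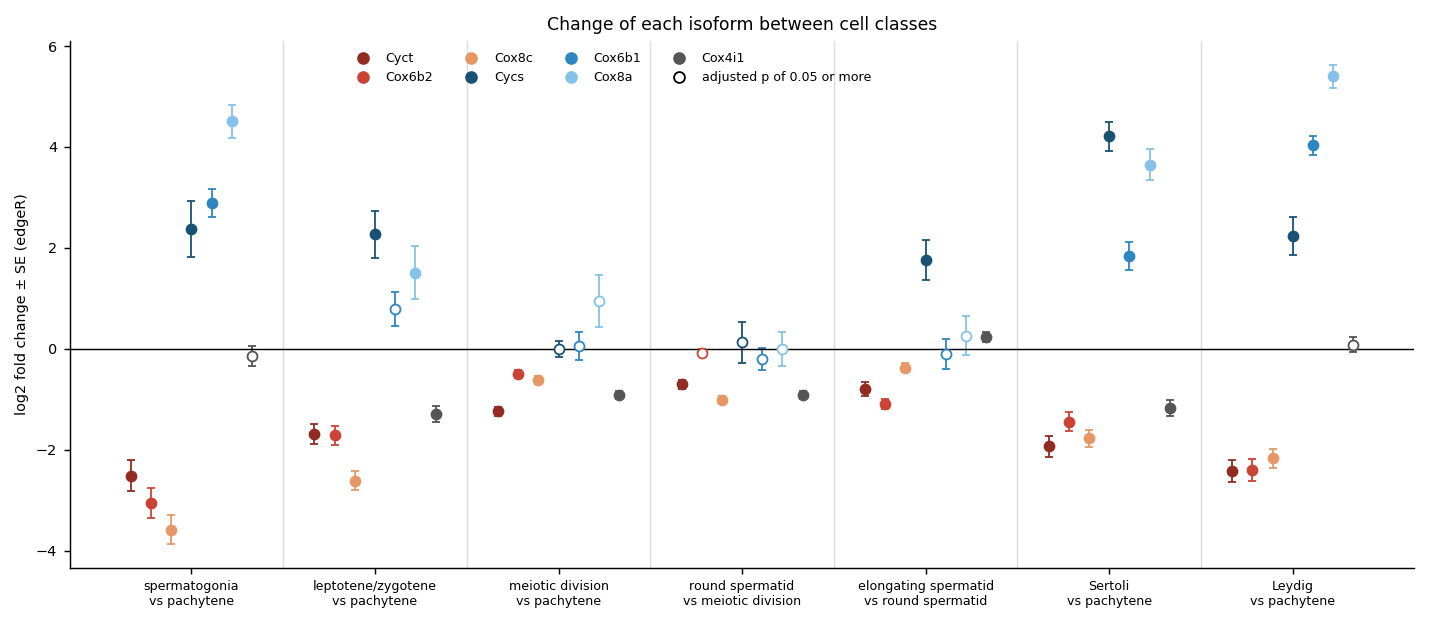
Log2 fold change of each member with its standard error in each class comparison, from the edgeR fits, with open points where the adjusted p was 0.05 or more. Testis forms lie below 0 in every comparison with pachytene-like cells and somatic forms lie above 0 in spermatogonia-like, Sertoli-like and Leydig-like cells.

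A share of UMIs within a pair needs no scaling between cells. In wild-type pachytene-like cells Cyct made up 98.9 ± 2.02% of cytochrome c UMIs (SD, n = 9), Cox6b2 97.1 ± 1.92% of those for subunit 6B and Cox8c 99.7 ± 0.337% of those for subunit 8. The testis form remained the larger part of each pair up to elongating cells, at 85.1 ± 16.1% for Cyct (n = 10), 93.1 ± 3.79% for Cox6b2 (n = 10) and 97.9 ± 1.41% for Cox8c (n = 11). Cyct's share was the most spread, from 41.9% in WT3 to 96.7%.

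Between round and elongating cells the share of Cyct fell from 96.3% to 85.1%, a mean difference of -11.1 points (SD 10.4) that was negative in 10 of 10 libraries (two-sided exact sign-flip permutation p = 0.00195, the smallest this design allows, adjusted p = 0.0281 over 36 tests). Without WT3 the difference was -8.14 points, lower in 9 of 9 libraries (exact permutation p = 0.00391, the smallest that 9 libraries allow, adjusted p = 0.0563), and in the 8 mechanical HiSeq libraries, which also leave WT3 out, it was -8.33 points (adjusted p = 0.0402). In elongating cells Cycs held 18 of the 31 UMIs of the pair in WT3. In each of the 9 other libraries it held 1 to 4 of 15 to 30 UMIs, so single UMIs set much of the size of this difference. The share of Cox6b2 fell from 96.5% to 93.1% (lower in 9 of 10 libraries, exact permutation p = 0.00586, adjusted p = 0.0312), by 2.6 points without WT3 (adjusted p = 0.0563) and by 2.95 points in the mechanical HiSeq libraries (adjusted p = 0.0402). Cox8c went from 98.5% to 97.9%, which did not pass (exact permutation p = 0.24, adjusted p = 0.333).

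Against pachytene-like cells, elongating cells had lower shares of all 3 testis forms. The differences were -14.7 points for Cyct, -4.28 for Cox6b2 (each lower in 9 of 9 libraries, exact permutation p = 0.00391, adjusted p = 0.0281) and -2.14 for Cox8c (8 of 9 libraries, exact permutation p = 0.00781, adjusted p = 0.0312). Without WT3 they were -10.1, -3.5 and -1.94 points, lower in 8, 8 and 7 of 8 libraries, and their unadjusted p of 0.00781, 0.00781 and 0.0156 (exact permutation, smallest possible 0.00781) became 0.0563 when adjusted. The mechanical HiSeq libraries, the same 8 for this step, gave the same differences with adjusted p of 0.0402, 0.0402 and 0.0563, so for Cyct and Cox6b2 the side of the threshold was set by the other tests in the family. Of the earlier steps only 1 passed, the fall of the Cox8c share from 99.7% to 99.2% at the divisions (8 of 9 libraries, adjusted exact permutation p = 0.0312). This call was lost without WT3 (-0.417 points, lower in 7 of 8 libraries, exact permutation p = 0.0156 where 0.00781 is the smallest possible, adjusted p = 0.0563) and in 4 other alternatives, of which that with at least 50 cells left 5 libraries and could not go below 0.0625.

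**Figure D3:**
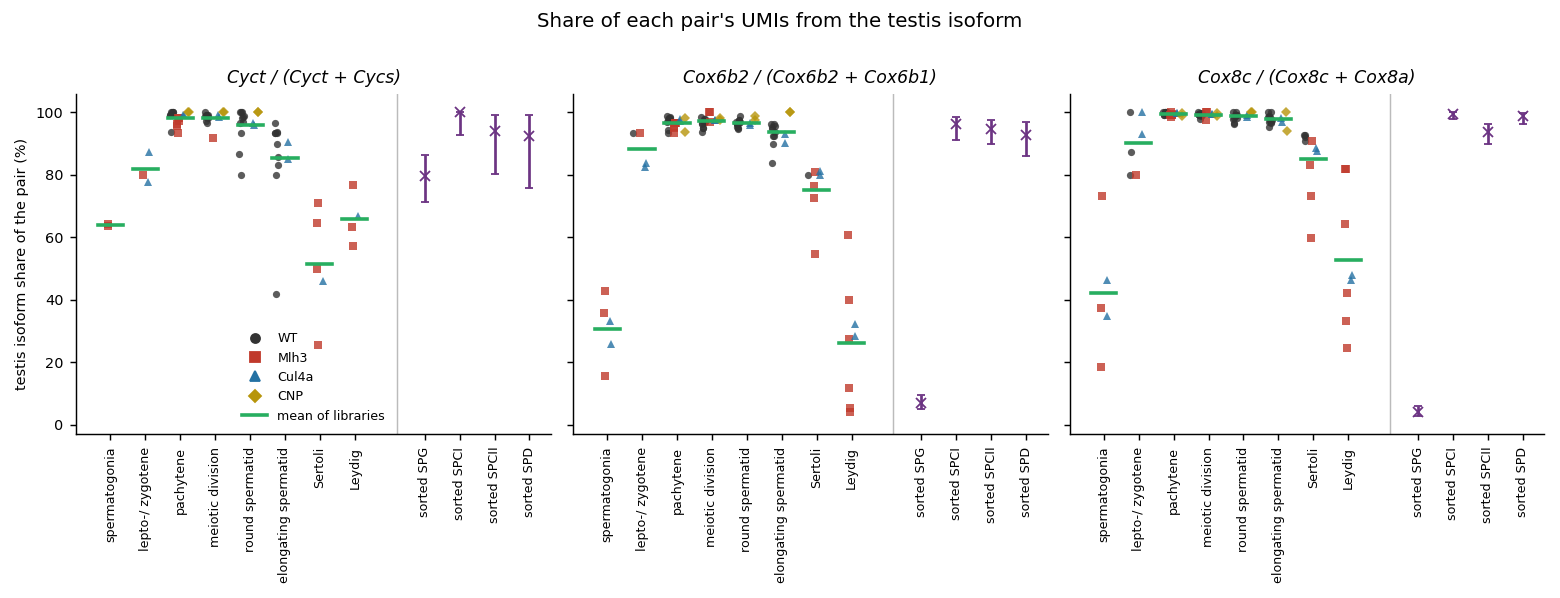
Share of the testis form among the UMIs of its pair (percent) in each class, 1 point per library with at least 10 cells and 10 UMIs of the pair, for Cyct, Cox6b2 and Cox8c, with a green line at the mean and crosses with 95% exact binomial intervals for the 4 sorted libraries. Mean shares are above 95% from pachytene-like to round cells, libraries spread downwards in elongating cells (41.9% in WT3 for Cyct), and shares are lowest in spermatogonia-like and Leydig-like cells for Cox6b2 and Cox8c.

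In the sorted spermatogonia of 7 days the 3 pairs stood at different points. Cox6b2 gave 37 UMIs and Cox6b1 503, so the testis form made up 6.85% (95% exact binomial interval 4.87 to 9.32%), and Cox8c gave 29 UMIs and Cox8a 680, or 4.09% (2.76 to 5.82%). Cytochrome c was the other way round: 94 UMIs of Cyct and 24 of Cycs, or 79.7% testis form (71.3 to 86.5%). In CPM these were 80.4 for Cyct, 20.5 for Cycs, 31.7 for Cox6b2, 430 for Cox6b1, 24.8 for Cox8c and 582 for Cox8a, beside 1960 for Cox4i1. The 3 intervals show that, within this library, Cyct's share lay above those of Cox6b2 and Cox8c by more than counting error, but there is 1 library and no replicate check.

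Transcripts that mark later germ cells were scarce in this library. Ldhc, the testis lactate dehydrogenase, gave 1 UMI (0.856 CPM), Pgk2 2 UMIs, Prm1 and Prm2 0 UMIs and Tnp1 6 UMIs of 1168498. In the 212 spermatogonia-like cells of the library Cyct held 93 of 104 cytochrome c UMIs, 89.4% (81.9 to 94.6%), and Cox6b2 and Cox8c 6.93% and 4.33%. In its 9 Sertoli-like cells Cyct held 0 of 11 UMIs, which allows a share of up to 28.5% by the exact interval. In the same 9 cells Cox6b2 held 3 of 43 UMIs of its pair (6.98%, 1.46 to 19.1%), Cox8c 0 of 22 (up to 15.4%) and Ldhc 0 of 13 (up to 24.7%). These intervals, like all on UMIs here, cover counting error only.

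Spermatogonia-like cells of whole testis were found in sufficient number in 5 libraries (3 Mlh3, 2 Cul4a), with 73 cells in all. Cyct was at 51.1, 217 and 359 CPM in Mlh3_2, Mlh3_5 and Mlh3_6 and at 165 and 99.8 CPM in Cul4a_1 and Cul4a_2, and Cycs at 17, 124, 199, 23.6 and 74.8 CPM in the same order. Cox6b1 ran from 306 to 520 CPM, Cox8a from 255 to 680 and Cox4i1 from 1480 to 2080, and none of the Cox6b1 and Cox8a values overlapped the pachytene-like ones in any strain. Cox6b2 ran from 61.9 to 260 CPM and Cox8c from 153 to 758 CPM, all below their pachytene-like ranges. The share of Cox6b2 was 30.6 ± 10.5% and that of Cox8c 42 ± 20% (SD, n = 5), while the share of Cyct was 63.6% and 64.3% in the 2 libraries with at least 10 cytochrome c UMIs. Ldhc stood at 340 to 1490 CPM in these cells, 12% of its pachytene-like level, beside 21.2% for Cyct, 13.5% for Cox6b2 and 11.4% for Cox8c, and the part of transcripts from other cells was not tested.

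Against pachytene-like cells, with all strains in 1 fit and 17529 genes, 3 members rose and 3 fell in spermatogonia-like cells, where 26.6% of all genes were called. In simulated data for this comparison 22% of calls were false, more than the threshold allows, and 5% of 2-fold changes were recovered. This limit applies to the share of all genes called and to the adjusted p-values below. Cox8a rose by 4.51 ± 0.33 on the log2 scale (adjusted p = 1.36e-32) and Cox6b1 by 2.89 ± 0.27 (adjusted p = 4.46e-21). Cycs rose by 2.37 ± 0.55 (adjusted p = 0.000184), but by 1.34 without Cul4a_2 (adjusted p = 0.0653) and 1.11 without Mlh3_6 (adjusted p = 0.187), where it was not past the threshold. Cox8c fell by 3.58 ± 0.28 (adjusted p = 1.73e-29), Cox6b2 by 3.06 ± 0.30 (adjusted p = 9.35e-20) and Cyct by 2.51 ± 0.30 (adjusted p = 4.09e-14). Cox4i1 was at -0.14 ± 0.19 (adjusted p = 0.708), and at -1.20 with DESeq2 (adjusted p = 1.62e-07). Without any 1 of Cul4a_1, Cul4a_2, Mlh3_2, Mlh3_5, Mlh3_6 and WT3 Cox4i1 was at -0.86 to -1.27 and passed, and Cyct moved the same way, to -3.18 to -3.75. The cause of this common shift was not tested.

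These comparisons depended on the tool, which sets both the scaling and the test. Of the genes called in spermatogonia-like cells 54.8% were higher with edgeR and 18.2% with DESeq2, and the medians over all genes were -0.19 and -0.02. With DESeq2 the pair members kept their directions, with Cycs at 1.19 (adjusted p = 0.0323), Cox6b1 at 1.65 and Cox8a at 3.34, and Cyct at -3.59, Cox6b2 at -4.08 and Cox8c at -4.63.

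In leptotene/zygotene-like cells the mean levels of the 3 testis forms lay between those of spermatogonia-like and pachytene-like cells. In the 6 wild-type libraries Cyct ran from 136 to 718 CPM (median 298), Cox6b2 from 170 to 981 (median 588) and Cox8c from 343 to 1440 (median 631), and Cycs, Cox6b1 and Cox8a had medians of 0, 17 and 0 CPM. In the libraries with at least 10 UMIs of a pair the testis share was 81.8 ± 5.09% for Cyct (n = 3: Mlh3_5, Cul4a_1 and Cul4a_2, with no wild-type library), 88.3 ± 5.85% for Cox6b2 (n = 4, with WT8 as the only wild-type library) and 90.1 ± 9.12% for Cox8c (n = 6, of which WT8, WT10 and WT11 were wild-type). Each library held few such cells, 215 over 11 libraries, so single UMIs set several of these values. Against pachytene-like cells 2 members rose and 4 fell, beside 23.4% of all genes called. This comparison comes from the same fit as that of spermatogonia-like cells. It was not simulated, so its share of false calls is not known. Cox8c fell by 2.61 ± 0.19 (adjusted p = 5.33e-33), Cox6b2 by 1.71 ± 0.19 (adjusted p = 1.37e-15), Cyct by 1.68 ± 0.20 (adjusted p = 8.41e-14) and Cox4i1 by 1.29 ± 0.16 (adjusted p = 9.66e-13). Cycs rose by 2.27 ± 0.46 (adjusted p = 2.16e-05), and the rise of Cox8a by 1.51 ± 0.53 (adjusted p = 0.0222) was lost without WT3 (0.98, adjusted p = 0.14) and with DESeq2 (0.63, adjusted p = 0.252). Cox6b1 was at 0.79 ± 0.34 (adjusted p = 0.0745). With DESeq2, 25.1% of called genes were higher, against 47.9% with edgeR, and the median over all genes moved from -0.18 to 0.38.

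Leydig cells, between the tubules, make testosterone, and Sertoli cells, within them, nurse the germ cells. In the Leydig-like cells of 8 libraries (6 Mlh3, 2 Cul4a, 654 cells) Cox6b1 ran from 174 to 702 CPM and Cox8a from 184 to 656 CPM, all above every pachytene-like value. Of the Mlh3 cells in this class 67.9% lay in 2 of its 3 clusters that were at least 80% Mlh3. Cycs ran from 0 to 117 CPM, with Mlh3_2 at 0, and Cox4i1 from 900 to 1660 CPM. UMIs of the testis forms were counted in these cells too: Cyct ran from 0 to 189 CPM, Cox6b2 from 14.9 to 334 and Cox8c from 214 to 1050. Their shares were 26.2 ± 19.1% for Cox6b2, 52.8 ± 21.3% for Cox8c (SD, n = 8) and 66 ± 8.27% for Cyct (n = 4).

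Against pachytene-like cells 3 members rose and 3 fell in Leydig-like cells, beside 36.9% of all genes called. On simulated data for this comparison the share of false calls was 21.1%, above what the threshold allows, and 29% of 2-fold changes were recovered. The share of all genes called and the adjusted p-values here are to be read with that limit. Cox8a rose by 5.40 ± 0.23 (adjusted p = 5.36e-72), Cox6b1 by 4.03 ± 0.19 (adjusted p = 1.88e-63) and Cycs by 2.23 ± 0.38 (adjusted p = 6.29e-08). Cyct fell by 2.42 ± 0.22 (adjusted p = 1.80e-22), Cox6b2 by 2.40 ± 0.22 (adjusted p = 2.87e-23) and Cox8c by 2.17 ± 0.19 (adjusted p = 6.21e-24). Cox4i1 was at 0.08 ± 0.15 (adjusted p = 0.782), at -0.54 without WT3 and at -0.92 with DESeq2, so its direction turned with the libraries and the tool used. Of called genes 65.9% were higher with edgeR and 28.1% with DESeq2.

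Sertoli-like cells had the highest mean Cycs level of the classes fitted, 188 ± 107 CPM (SD, n = 10). It was at 113 to 204 CPM in 4 wild-type libraries and at 91.1 to 474 CPM in 4 Mlh3 libraries, each wild-type value from 2 UMIs. Cox6b1 ran from 56.6 to 210 CPM and Cox8a from 56.6 to 519 over all 10 libraries. Cyct ran from 0 to 379 CPM, Cox6b2 from 197 to 840 and Cox8c from 380 to 1330. Testis shares were 51.5 ± 17.8% for Cyct (n = 5: Mlh3_2, Mlh3_4, Mlh3_5, Mlh3_6 and Cul4a_2, with no wild-type library), 75.2 ± 9.47% for Cox6b2 (n = 7) and 85.2 ± 10.8% for Cox8c (n = 10). In the 9 Sertoli-like cells of the sorted library of 7 days they were lower, at 0% of 11 UMIs for Cyct, 6.98% of 43 for Cox6b2 and 0% of 22 for Cox8c.

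In the test of Sertoli-like against pachytene-like cells 3 members rose and 4 fell, beside 34.3% of all genes called. The same fit gave the spermatogonia-like and Leydig-like comparisons. The Sertoli-like one was not simulated, so its share of false calls is not known. Cycs rose by 4.21 ± 0.29 (adjusted p = 2.30e-36), Cox8a by 3.65 ± 0.31 (adjusted p = 3.52e-26) and Cox6b1 by 1.84 ± 0.27 (adjusted p = 1.02e-09). Cyct fell by 1.93 ± 0.21 (adjusted p = 1.93e-17), Cox8c by 1.77 ± 0.17 (adjusted p = 5.54e-21), Cox6b2 by 1.44 ± 0.18 (adjusted p = 7.08e-13) and Cox4i1 by 1.17 ± 0.16 (adjusted p = 4.30e-11). The median over all genes was 0.08 with edgeR and 0.42 with DESeq2, and 66.9% against 34.6% of called genes were higher.

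Testis forms in somatic cells were read beside transcripts known from germ cells. Ldhc stood at 55.2% of its pachytene-like level in Sertoli-like cells and at 28.6% in Leydig-like cells, as ratios of mean CPM over the same libraries. Cyct stood at 23.9% and 11.5%, Cox6b2 at 33.6% and 15.9%, and Cox8c at 30.4% and 20.9%, all lower percentages than that of Ldhc. A further cluster, led by the hemoglobin gene Hbb-bs and with a median of 345 UMIs per cell, was not tested against pachytene-like cells and did not share these low values: over 8 libraries Cyct stood at 84.6%, Cox6b2 at 104%, Cox8c at 96.9% and Ldhc at 92.8% of the pachytene-like level. Pgk2, the testis phosphoglycerate kinase, did not follow Ldhc on this reference, at 334% in Sertoli-like and 88.1% in Leydig-like cells. Its pachytene-like level was low, with a mean of 199 CPM in the 4 wild-type libraries with Sertoli-like cells. Whole mechanical wild-type libraries held 896 to 1130 CPM of it, so these percentages depend on the class taken as reference. The strains differed in these percentages. In Sertoli-like cells Pgk2 stood at 412% in wild-type, 372% in Cul4a and 104% in Mlh3 libraries, and in Leydig-like cells Ldhc stood at 35.1% in Mlh3 and 15.5% in Cul4a libraries. Spermatid markers were also present where the testis holds spermatids: Prm1 averaged 6750 CPM in Sertoli-like cells but was at 0 in all 4 Mlh3 libraries, and in Leydig-like cells it was at 0 in all 6 Mlh3 libraries. The whole elongating spermatid marker list summed to 45500 to 81400 CPM in wild-type Sertoli-like cells (12 of 12 markers with a UMI) and to 410 to 927 CPM in Mlh3 ones (3 of 12, with Prm1, Prm2 and Tnp1 at 0). The part of free germ cell RNA in the testis-form UMIs of somatic cells was not tested.

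**Figure D4:**
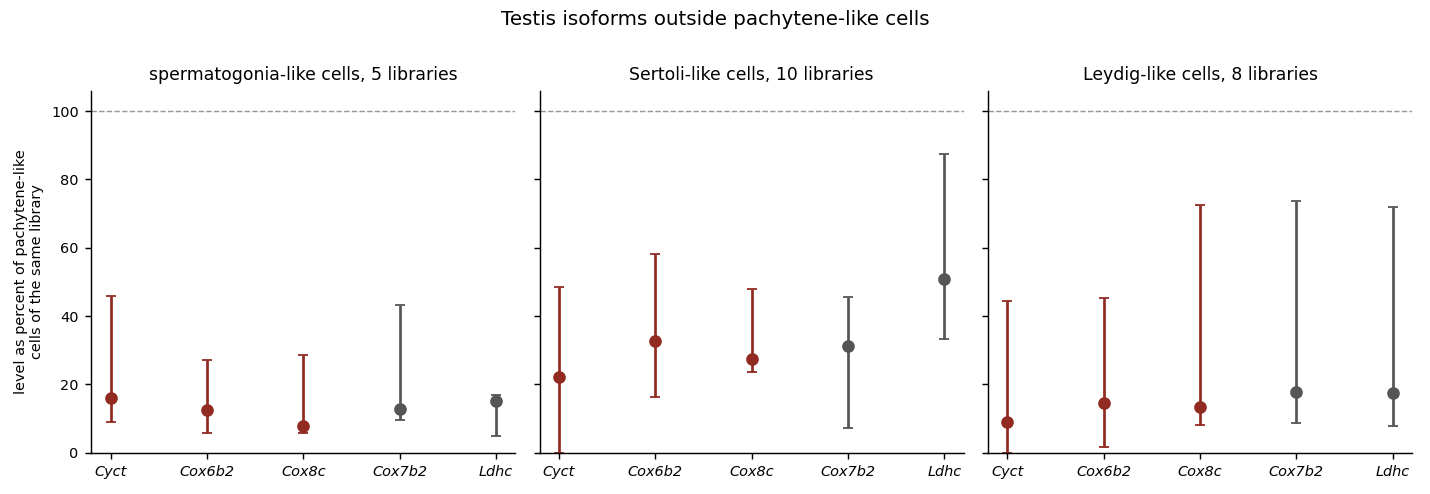
Level of Cyct, Cox6b2, Cox8c, Cox7b2 and Ldhc in spermatogonia-like, Sertoli-like and Leydig-like cells as a percent of the pachytene-like level of the same library, with points at the median over libraries and bars from the lowest to the highest. In Sertoli-like cells Ldhc lies at a median of 50.9% and the 3 testis forms at medians of 22.1% to 32.8%.

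The libraries of sorted meiotic and postmeiotic populations held almost only testis forms. In primary spermatocytes Cyct made up 100% of 50 cytochrome c UMIs (92.9 to 100%), Cox6b2 96.2% (91.3 to 98.7%) and Cox8c 99.6% (97.9 to 100%). Secondary spermatocytes gave 94.1%, 94.7% and 93.6%, with 16 UMIs of Cox8a beside 235 of Cox8c, and spermatids 92.6%, 92.7% and 99%. Cyct was at 467, 122 and 105 CPM in the 3 libraries, Cox6b2 at 1170, 542 and 426 and Cox8c at 2460, 897 and 826, so all 3 were highest in primary spermatocytes. Prm1 was at 1530, 17300 and 33500 CPM. The cells of these libraries did not all fall in the classes of their labels. In the library labelled primary spermatocytes 21 cells were pachytene-like and 159 lay in the cluster led by Hbb-bs, although the library itself held 0 UMIs of that gene, and these 159 had a median of 293 UMIs. In the library labelled secondary spermatocytes 71 cells were elongating spermatid-like, 46 round spermatid-like, 16 unnamed, 9 Leydig-like and 7 division-like.

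The mutant strains were compared within pachytene-like cells first, where all strains had libraries. In the 6 Mlh3 libraries Cycs ran from 13.4 to 55.3 CPM (median 18.8) against 0 to 38.8 (median 5.77) in wild-type, and only WT3 among the wild-type lay above 7.54 CPM. Cyct ran from 426 to 802 CPM, Cox6b2 from 592 to 1060, Cox8c from 1150 to 2650 and Cox4i1 from 783 to 1650, each overlapping wild-type. Of the 7 members 1 was called, beside 14.1% of 11561 genes: Cycs was higher by 1.63 ± 0.58 (adjusted p = 0.0477). The call was lost without Mlh3_1, Mlh3_2, Mlh3_3 or Mlh3_5 in turn (1.34 and adjusted p = 0.108 without Mlh3_3), while without WT3 the difference was 2.45 (adjusted p = 0.00236) and in HiSeq libraries alone 2.40 (adjusted p = 0.00335). Cox8a, at 1.49 ± 0.56 (adjusted p = 0.0655), passed without WT3 (1.76, adjusted p = 0.0457). A fit with a replicate block gave 1.44 for Cycs (adjusted p = 0.316), although the numbers do not pair the libraries.

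The share of Cyct in these cells was 96.5% in Mlh3 and 98.9% in wild-type libraries, a difference that did not pass over all libraries (two-sided exact permutation p = 0.0352, adjusted p = 0.155 over 84 tests) and passed without WT3 (-3.09 points, adjusted p = 0.00311). In Cul4a 0 of 7 members were called, beside 0.926% of all genes. Cox6b2 was nearest, at 2010 and 2090 CPM against at most 1510 in wild-type, with 0.90 ± 0.25 (adjusted p = 0.0684). By edgeR 4 members had an unadjusted p under 0.05 (Cyct, Cox6b1, Cox6b2 and Cox4i1, all higher), a count for which the share of all genes is not given. In this fit 88.8% of all called genes were higher, and the median over all genes was 0.14. In CNP 0 members were called, beside 0.424%, and 0 had an unadjusted p under 0.05, with Cycs at 0 UMIs in both libraries.

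In round spermatid-like cells 4 of the 5 complex IV members were higher in Cul4a. Depth in this class differed by strain, with medians of 2935 UMIs per cell in Cul4a, 1487 in wild-type and 782 in CNP. Its part in the differences was not tested. Cox6b1 was at 31.5 and 44.9 CPM against 7.1 to 24 in the 9 mechanical wild-type libraries, Cox6b2 at 914 and 1070 against 334 to 666, and Cox8c at 921 and 1140 against 369 to 685. These 3 did not overlap, and the share of all genes without overlap is not given. Cox4i1 was at 352 and 452 CPM against 230 to 384. The 4 were called, of 7, beside 16.4% of 12277 genes: Cox6b1 by 1.12 ± 0.24 (adjusted p = 0.000935), Cox6b2 by 0.88 ± 0.21 (adjusted p = 0.00949), Cox8c by 0.82 ± 0.17 (adjusted p = 0.00128) and Cox4i1 by 0.43 ± 0.15 (adjusted p = 0.0377). Cox8a, the fifth, was at 0.55 ± 0.41 (adjusted p = 0.394), and Cyct, at 137 and 141 CPM, differed by 0.04 ± 0.16 (adjusted p = 0.906). Because both forms of subunit 6B were higher, its testis share was 96.3% in Cul4a and 96.7% in wild-type (exact permutation p = 0.709, the smallest possible being 0.0182).

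All 4 calls were lost without Cul4a_1, at 0.84 (adjusted p = 0.101), 0.76 (adjusted p = 0.137), 0.66 (adjusted p = 0.0908) and 0.23 (adjusted p = 0.583) in the same order, with 1 Cul4a library left. With DESeq2 37.1% of called genes were higher against 61.3% with edgeR, and 70% of the Cul4a cells of this class lay in clusters made mostly of Cul4a cells, so the class is not made of the same clusters in both strains. In CNP 0 of 7 members were called, beside 0.318%, and 0 had an unadjusted p under 0.05. In elongating cells 1 of 7 was called in Cul4a, beside 13.2% of 9369 genes, Cox6b2 by 0.64 ± 0.21 (adjusted p = 0.0368). That call was lost with DESeq2 (0.67, adjusted p = 0.0986), with edgeR's filterByExpr (0.62, adjusted p = 0.0522), with all 11 wild-type libraries (0.65, adjusted p = 0.141) and without Cul4a_1 (0.53, adjusted p = 0.315) or Cul4a_2 (0.81, adjusted p = 0.0884). Of the cells in this class 43.5% of Cul4a and 69.6% of wild-type ones lay in clusters that were at least 80% of their own strain. In CNP elongating cells 0 of 7 were called, beside 0.288%, and Cyct had an unadjusted edgeR p of 0.0237 (adjusted p = 0.569). By DESeq2, too, 0 members were called in pachytene-like Cul4a and CNP cells, in round and elongating CNP cells and in whole CNP libraries.

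Over whole libraries the Mlh3 testes held more of the somatic forms. Cycs ran from 28.2 to 103 CPM (median 48.5) against 3.92 to 28.7 (median 5.8) in 9 wild-type libraries, Cox6b1 from 53.8 to 192 (median 111) against 14.5 to 37.3 (median 20.9), and Cox8a from 37.1 to 149 (median 93.5) against 4.66 to 21.7 (median 11.7). Cox6b1 and Cox8a did not overlap, and Cycs did so only through WT3. The share of all genes without overlap is not given, and 72.4% of all genes were called in this comparison. Cyct ran from 235 to 540 CPM against 177 to 285, Cox6b2 from 340 to 795 against 350 to 728, Cox8c from 925 to 2160 against 618 to 1300, and Cox4i1 from 894 to 1390 against 527 to 904. In whole libraries fewer cells of a type and less RNA per cell cannot be told apart.

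**Figure D5:**
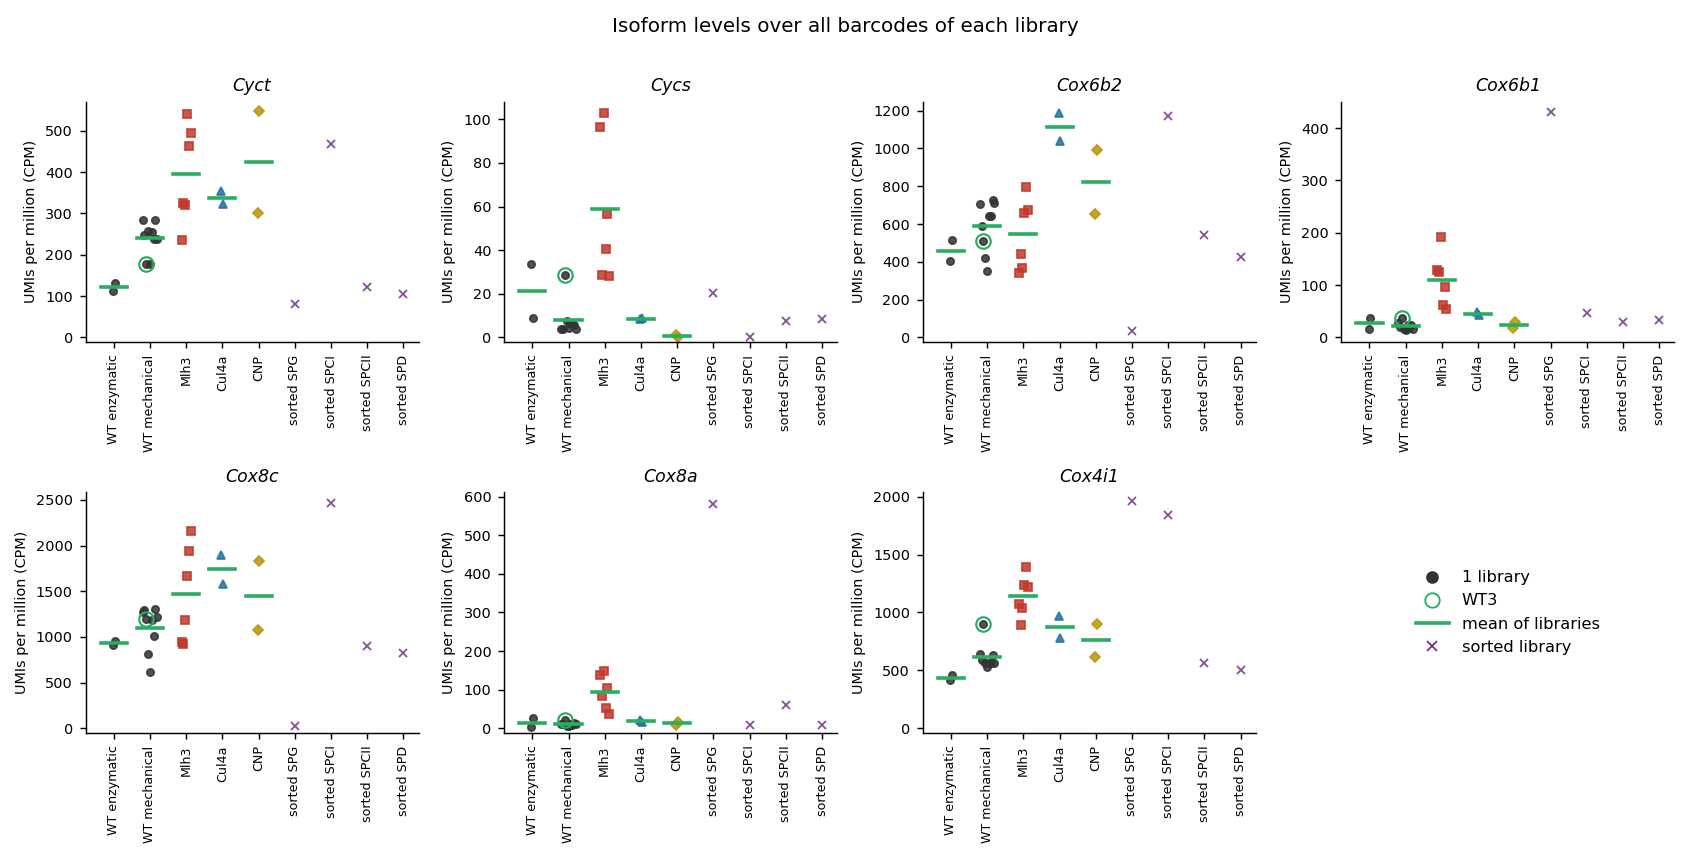
Level of the 7 members (CPM, linear axes) over all barcodes of each library, 1 point per library, grouped by strain and, for wild-type, by dissociation, with a green line at the mean, WT3 circled and crosses for the sorted libraries. The 6 Mlh3 libraries lie above all mechanical wild-type libraries for Cox6b1 and Cox8a, and the 2 Cul4a libraries lie above them for Cox6b2.

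Of the 7 members 3 were higher and 1 lower in Mlh3 libraries, beside 72.4% of 19001 genes called. Cycs and Cox8a were each higher by 2.57 (SE 0.39 and 0.31, adjusted p = 5.09e-06 and 1.91e-07) and Cox6b1 by 1.78 ± 0.25 (adjusted p = 9.11e-07), while Cox6b2 was lower in the fit, at -0.63 ± 0.21 (adjusted p = 0.0105). In CPM the mean of Cox6b2 was 546 ± 188 in Mlh3 and 588 ± 135 in wild-type libraries (SD), a difference smaller than the spread. In HiSeq libraries alone the fitted values were 2.74, 2.43, 1.66 and -0.58. With the replicate block Cox6b2 was at -0.10 (adjusted p = 0.783) and Cyct was higher by 0.61 (adjusted p = 0.0329). The share of Cox6b2 was 81.5 ± 11.2% in Mlh3 (n = 6) and 96.3 ± 1.3% in wild-type (n = 9), with all 6 below every wild-type library (two-sided exact permutation p = 0.0002, the smallest possible, adjusted p = 0.00336). The share of Cox8c was 93 ± 4.46% against 99 ± 0.337% (exact permutation p = 0.0004, adjusted p = 0.00559), and that of Cyct 85.9 ± 10% against 96.6 ± 3.98% (exact permutation p = 0.00659, adjusted p = 0.0462). The last was lost in turn without each of Mlh3_1 to Mlh3_5, at -7.72 to -12.5 points over all left-out libraries, and held without WT3 (-12 points, adjusted p = 0.00311).

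Marker sums moved with these values. Over whole libraries the 7 Leydig markers summed to 1340 to 9180 CPM in Mlh3 and 89.6 to 390 in wild-type, the 10 Sertoli markers to 1080 to 5620 against 213 to 414, and the 12 elongating spermatid markers to 571 to 1140 against 30300 to 53700, with Prm3 at 0 in Mlh3. Mlh3 testes gave 582 of the 654 Leydig-like cells used, 386 of them in Mlh3_1, and 0 spermatid-like ones, while 42 wild-type and 12 CNP Leydig-like cells lay in libraries with fewer than 10 and were not used, and mitochondrial transcripts made up 4.55 to 13.4% of UMIs in Mlh3 and 0.517 to 1.72% in wild-type libraries. Their part in the member differences was not tested. In whole Cul4a libraries Cox6b1 (1.05 ± 0.33, adjusted p = 0.0443) and Cox6b2 (0.90 ± 0.29, adjusted p = 0.048) were called, 2 of 7 beside 9.49% of all genes, and both calls were lost without either Cul4a library and with DESeq2, by which 48.5% of called genes were higher against 79.9% with edgeR. The call of Cox6b2 was also lost without WT3 (0.84, adjusted p = 0.0733). In CNP libraries 0 of 7 were called, beside 0.884%, where 20.2% of calls were higher with edgeR and 7.79% with DESeq2. Cyct had an unadjusted p under 0.05 (0.69 ± 0.27, adjusted edgeR p = 0.315), and Cycs gave 1 UMI over both libraries.

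Other genes of the chain were followed from lists of 13 complex IV subunits, 22 assembly factors, 15 genes of complex III and cytochrome c handling, 13 genes encoded by mitochondrial DNA and 13 cell death partners of cytochrome c, the members left out. Each count is to be read against the share of all genes called in the same comparison: 56.6% at the divisions, 62.8% into round cells, 46.8% into elongating cells, 26.6% in spermatogonia-like, 34.3% in Sertoli-like and 36.9% in Leydig-like cells, and 16.4% in round Cul4a cells. The mitochondrially encoded genes moved together along the germ line. Of 8 tested, 8 fell at the divisions (median log2 change -2.27, against 0.28 for all genes), 7 fell into round cells (-1.57 against -0.10), and 8 rose in elongating cells (1.73 against 0.05). mt-Cytb, the cytochrome b of complex III, fell by 2.81 ± 0.13 (adjusted p = 1.06e-21), fell again by 1.57 ± 0.18 (adjusted p = 4.51e-10) and rose by 1.78 ± 0.21 (adjusted p = 1.33e-09), and mt-Co1, the catalytic core of complex IV, rose by 1.73 ± 0.16 (adjusted p = 1.96e-24) in elongating cells, the step at which Cox6b2, Cyct and Cox8c fell. Against pachytene-like cells 8 of 8 were higher in Leydig-like cells (median 1.46) and 8 of 8 lower in elongating cells (median -1.76). Cells with a high share of mt-Rnr2, itself encoded by mitochondrial DNA, had been removed before these sums. Values of these genes without that filter are not given here.

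The nuclear-encoded subunits behaved less evenly. At the divisions 5 of 9 complex IV subunits fell and 1 rose (median -0.42), and from round to elongating cells 6 fell and 2 rose (median -0.69). Cox7b2, the testis form of subunit 7B, fell at each step, by 0.53 ± 0.08 (adjusted p = 2.11e-10), 0.84 ± 0.08 (adjusted p = 4.34e-27) and 0.93 ± 0.11 (adjusted p = 2.23e-17). In Leydig-like cells 7 of 10 subunits rose and 1 fell (median 0.62 against 0.09 for all genes): Cox7b, the common form of subunit 7B, rose by 6.69 ± 0.35 (adjusted p = 4.95e-35), Cox7a1 by 5.19 ± 0.63 (adjusted p = 9.54e-14), Ndufa4 by 3.98 ± 0.20 (adjusted p = 1.14e-57) and Cox6a1 by 2.48 ± 0.15 (adjusted p = 2.40e-46). Spermatogonia-like cells had 2 higher and 2 lower of 10 subunits, with Ndufa4 higher by 3.00 ± 0.28 (adjusted p = 3.85e-21) and Cox7b2 lower, at -2.85 ± 0.29 (adjusted p = 1.04e-18). In Sertoli-like cells 3 rose and 4 fell.

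Of 20 assembly factors tested, 10 fell and 3 rose at the divisions, a share near that of all genes, with Cox14, a factor for the synthesis of subunit 1, at -2.40 ± 0.25 (adjusted p = 5.31e-20), and in Leydig-like cells 9 of 21 rose and 0 fell, also near the share of all genes. Of 13 complex III genes 7 fell and 3 rose at the divisions, with Cyc1, the cytochrome c1 that hands electrons to cytochrome c, at -2.15 ± 0.20 (adjusted p = 8.99e-26). Among the cell death partners Diablo, an antagonist of caspase inhibitors released with cytochrome c, fell by 1.15 ± 0.08 (adjusted p = 1.11e-42) and by 2.69 ± 0.11 (adjusted p = 8.53e-139) at the first 2 steps and rose by 1.58 ± 0.14 (adjusted p = 8.79e-29) in elongating cells. In spermatogonia-like cells 6 of 12 partners rose and 2 fell (median 2.07 against -0.19), among them Bax, a pore-forming protein of the outer membrane, by 4.29 ± 0.57 (adjusted p = 2.35e-11). In round Cul4a cells 4 of 7 mitochondrially encoded genes, 2 of 9 complex IV subunits, 5 of 17 assembly factors and 4 of 12 complex III genes were higher and 0 lower, with Cox7b2 higher by 0.67 ± 0.16 (adjusted p = 0.00238). These counts are from edgeR, by which 61.3% of all called genes in this comparison were higher, against 37.1% with DESeq2.

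The genes whose levels ran most like those of the testis forms were found over 55 wild-type profiles (library by class) and 3896 genes, as a Pearson correlation of log2(CPM + 10), which is a description since profiles share libraries. For Cyct they were Cox7b2 (0.860), Thoc1 (0.848) and Fyttd1 (0.841), for Cox6b2 Pabpc1 (0.891), Gm11837 (0.873) and Acyp1 (0.865), and for Cox8c Rsph1 (0.906), Cox7b2 (0.906) and Lyar (0.901), a pachytene marker used here. Cyct and Cox6b2 were less alike (0.774) than Cox6b2 and Cox8c (0.838).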

How the data were processed

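Per the labels and the methods of the study, the authors aligned reads with STAR 2.5.3a to mm10 (GRCm38) and used the Drop-seq pipeline to make the deposited UMI counts per gene and barcode, 1 table per library, which are not normalized. Treatment of reads that match several places is not given in the sources used here. The 7 members and all lists were chosen with earlier results of these data known.

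Barcodes with at least 200 UMIs, at least 50 genes and no high mt-Rnr2 share were kept, if their UMIs and genes were not more than 1 SD below the library mean. They were clustered without 89 listed genes by the Leiden method (leidenalg, resolution 2) on a graph of shared neighbours (40 principal components, 20 neighbours), and clusters were named by markers. Doublets were not called. Counts were summed per library and class (at least 10 cells) and tested with edgeR 4.0.16 in R 4.3.3 (TMM, quasi-likelihood, genes with at least 20 counts, Benjamini-Hochberg over all genes, threshold 0.05), with library as a block between classes. Shares used at least 10 UMIs of a pair and exact permutation tests (scipy 1.17.1). The genes named outside the members were at most 4 per list and comparison with the largest changes past the threshold, the other isoform pairs, and the 3 genes most like each testis form. Alternatives were DESeq2 1.42.0, other filters and clusterings, sequencer and dissociation subsets, a replicate block and leaving out each library. The fits were tested on simulated data, where 5 of the 6 simulated comparisons (all but whole Mlh3 libraries) gave a higher share of false calls than the threshold allows. The share was highest for spermatogonia-like (22%) and Leydig-like cells (21.1%), where 5% and 29% of 2-fold changes were recovered. Replicate numbers do not pair libraries: over 10 same-numbered pairs the correlation of deviations ran from -0.352 to 0.106.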

Additional observations from a re-analysis of the deposited data

Results flagged for a closer look

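In 112 groups of 4 to 10 libraries, 21 had a lowest or highest library that stood apart by Dixon's test, which chance does in about 1 group in 20, and the groups share libraries. WT3 was that library in 17 of them; it held 1288257 UMIs, and no cause was tested.

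Over whole libraries WT3 had the highest Cycs level among mechanical wild-type libraries (28.7 CPM, the others 3.92 to 7.37) and the highest Cox4i1 level (904 CPM, the others 527 to 641). Its testis shares were the lowest: 86% for Cyct (others 97.2 to 98.6%), 93.2% for Cox6b2 (others 96 to 97.8%) and 98.2% for Cox8c (others 98.9 to 99.4%). Within classes WT3 was highest for Cycs in pachytene-like (38.8 CPM, others up to 7.54), round (21 CPM, others up to 8.63) and elongating cells (59.4 CPM, others up to 12.7). It was also highest for Cox6b1 in leptotene/zygotene-like (319 CPM, others up to 48) and elongating cells (29.7 CPM, others up to 16.1), and for Cox4i1 in pachytene-like (2090 CPM, others up to 1640) and elongating cells (327 CPM, others up to 240). Its Cyct level was the lowest in division-like cells (88.3 CPM, others from 212). Its Cyct share was the lowest in pachytene-like (93.7%), round (80%) and elongating cells (41.9%), and its Cox8c share in division-like cells (97.8%, others from 99%).

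The other 4 were single values. WT6 had 109 CPM of Cycs in leptotene/zygotene-like cells (others up to 34.1), WT5 a Cyct share of 96.6% in division-like cells (others from 98.3%), WT9 72.6 CPM of Cyct in elongating cells (others up to 55.5) and Mlh3_3 55.3 CPM of Cycs in pachytene-like cells (others up to 22.2).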

How the results depend on the processing

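Of the member values recomputed under the alternatives, 1169 kept direction and side of the threshold, 54 lost the call, 33 gained one and 4 reversed. The reversals were Cox6b2 from division-like to round cells in mechanical HiSeq libraries (0.16), and Cox4i1 in Leydig-like cells with DESeq2 (-0.92), without the mt-Rnr2 cell filter (-0.48) and without WT3 (-0.54, chosen after seeing the data). The cause was not tested for any change below.

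Counts of genes called moved as follows. With DESeq2 they were 39 and 80 in pachytene-like Cul4a and CNP cells (107 and 49 with edgeR), 1154 and 99 in round cells (2018 and 39), 696 and 78 in elongating cells (1233 and 27) and 809 in whole CNP libraries (168), and 0 members were called in elongating Cul4a cells and whole Cul4a libraries. With filterByExpr they were 1005 for Mlh3 and 25 for Cul4a in pachytene-like cells, 13 for elongating CNP cells and 403 for whole CNP, with 0 members in elongating Cul4a cells and 1 in whole Cul4a. With no filter beyond 1 count these were 2 and 1 members. With at least 50 cells pachytene-like cells gave 0 Mlh3 members, 282 Cul4a genes with 2 members and 80 CNP genes. In HiSeq libraries pachytene-like cells gave 2 Mlh3 members, 251 Cul4a genes with 1 member and 84 CNP genes, round CNP cells 88, elongating cells 2 Cul4a members and 71 CNP genes, and whole libraries 2807 for Cul4a and 429 for CNP. With all 11 wild-type libraries round cells gave 1101 and 19, elongating Cul4a cells 816 with 0 members and whole Cul4a 876 with 0 members. Leiden resolution 1 gave 1 Cul4a member and 22 CNP genes in pachytene-like cells, 61 in round CNP cells and 2 members in elongating Cul4a cells. Without the mt-Rnr2 filter pachytene-like Cul4a cells gave 1 member and elongating ones 2299 genes with 2 members. With the replicate block, which could not be fitted in round and elongating cells, pachytene-like cells gave 622 genes and 0 members for Mlh3, 12 genes for Cul4a and 26 for CNP, and whole libraries 7 genes and 0 members for Cul4a and 43 genes for CNP; the Mlh3 whole-library shares differed by -6.45 (Cyct), -10.7 (Cox6b2) and -4.15 points (Cox8c), none past the threshold. The numbers are shared labels only, and 0 of 4 Mlh3 libraries correlated best with their own number.

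Share differences that crossed the threshold were, for Cyct from round and from pachytene-like to elongating cells, -15 and -18.9 points in cells of at least 500 UMIs, and -17.1 from pachytene-like cells with at least 50 cells, where Cox6b2 gave -4.04 and Cox8c -2.5. For Cox8c at the divisions they were -0.352 (Leiden 1), -0.26 (no mt-Rnr2 filter), -0.526 (50 cells) and -0.417 (mechanical HiSeq). For Cox8c into round cells -1.04 (Leiden 1) and -0.675 (no mt-Rnr2 filter) passed, and from pachytene-like to elongating cells -1.69 (no mt-Rnr2 filter) and -1.94 (mechanical HiSeq) did not. With all 11 wild-type libraries the Mlh3 whole-library difference for Cyct was -8.66 points.

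Leaving out 1 library at a time, members called ranged from 0 to 2 in pachytene-like Mlh3, 0 to 4 in round Cul4a, 0 to 2 in elongating Cul4a and 0 to 1 in whole Cul4a samples. Genes called ranged from 41 to 96 and 16 to 51 in pachytene-like Cul4a and CNP cells, 567 to 2502 and 8 to 88 in round cells, 387 to 1571 and 6 to 75 in elongating cells, and 527 to 1826 and 31 to 424 in whole libraries. Without WT3 the stage differences were -8.14 and -10.1 for Cyct, -2.6 and -3.5 for Cox6b2, and -0.417 and -1.94 for Cox8c, all at an adjusted p of 0.0563, where 8 or 9 libraries allow no p below 0.00781 or 0.00391, and the Cyct difference in whole Mlh3 libraries ranged from -12.5 to -7.72. Depth limits what can be said of the somatic forms in germ cells, where many libraries held 0 to a few UMIs.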

Other observations

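Other pairs with a testis form did not all follow the respiratory chain. The share of Ldhc among lactate dehydrogenase A and C UMIs rose in wild-type cells while those of Cyct and Cox6b2 fell, from 89.9% in pachytene-like to 94.3% in elongating cells over the same libraries, and by 2.49 points from round to elongating cells (higher in 11 of 11 libraries, adjusted exact permutation p = 0.0281). The share of Slc25a31, the testis ADP/ATP carrier, among its pair with Slc25a4 went from 97.1% to 30.4% between pachytene-like and elongating cells (lower in 7 of 7 libraries, exact permutation p = 0.0156, the smallest that 7 libraries allow, adjusted p = 0.0563). In the sorted spermatogonia-like cells of 7 days Slc25a31 held 84.6% of its pair, beside 89.4% for Cyct, 55.7% for Cox7b2 and 55.7% for Pdha2, and 6.93% and 4.33% for Cox6b2 and Cox8c.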
